A study of Mus musculus with 6 samples.

Results

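Transcripts of 9 genes of fibrin formation and fibrin removal were described in whole mouse kidneys after ischemia-reperfusion, in which blood flow to the organ is cut off for a time and then let back in. The genes were taken by symbol from the deposited table: Fga, Fgb and Fgg (fibrinogen chains), F3 (tissue factor), Plaur (urokinase receptor), Plau (urokinase), Plat (tissue plasminogen activator), Thbd (thrombomodulin) and Procr (endothelial protein C receptor). Each symbol matched 1 row, so they are 9 of 56747 gene rows, and all 9 passed the filter on low counts, as did 17557 rows in all. The mice were wild-type male C57BL/6J, an inbred laboratory strain, and their age was not given in the sources used here. In the tacrolimus group, 3 libraries came from mice that had taken 1 mg/kg/day of tacrolimus by mouth for 1 day before surgery. In the saline group, 3 libraries came from mice given oral saline on the same schedule. Both groups had 30 min of ischemia and 24 h of reperfusion, so no uninjured kidney is among the 6 libraries. The design text gives 6 mice per group, and whether the kidneys of several mice were pooled is not said. The design text words the surgery differently, as partial bilateral ischemia for saline and occlusion of the renal arteries on both sides for tacrolimus, and the surgery and the drug cannot be told apart if the surgery did differ. Tacrolimus, a drug given to prevent graft rejection, binds the immunophilin FKBP12 and so blocks the phosphatase calcineurin.

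Fibrinogen is a soluble plasma protein built from paired alpha, beta and gamma chains, and hepatocytes are its main source. Tissue factor on cell surfaces starts coagulation, thrombin then cuts fibrinogen to fibrin, and thrombomodulin with the endothelial protein C receptor turns thrombin towards activation of protein C, an anticoagulant. Urokinase and tissue plasminogen activator convert plasminogen to plasmin, which degrades fibrin, and the urokinase receptor holds urokinase at the cell surface. Outside the liver, fibrinogen chain transcripts are known to be made by injured kidney tubules, and urokinase is made by tubules and enters the urine.

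The table held 38443534 to 44476844 counts per library. Levels are given as CPM, the counts of a gene scaled to a common library size with TMM, a method that trims extreme genes before it compares libraries. Levels of different genes are compared only as FPKM, the deposited values, which the authors also scaled for gene length. They do not follow from the listed counts and gene lengths, so orders and ratios between genes hold for the deposited values only. Folds are tacrolimus over saline, and a gene is said to be called when its Benjamini-Hochberg adjusted p in the edgeR quasi-likelihood test, run over all 17557 genes, was under 0.05. Where a library was left out, the filter on low counts was run anew. Without saline replicate 1 it passed 18081 genes, and calls and shares for that fit are over those. Calls by DESeq2, another count test, use the same threshold and are named as such. Saline replicate 1 lay closer to the tacrolimus libraries than to the rest of its group. On log2 CPM over all tested genes it differed from the tacrolimus libraries by a root mean square of 0.592 to 0.612. Its differences from saline replicates 2 and 3 were 0.867 and 1.04. Saline replicates 2 and 3 also lay far apart, at 0.817, against 0.576 to 0.613 between tacrolimus libraries. The calls are therefore also given without saline replicate 1. As it is the member of its group closest to the tacrolimus libraries, leaving it out favors larger differences. The labels do not state that each library is a separate mouse, so p-values measure the spread between libraries. In whole tissue, fewer cells of a type and less RNA per cell cannot be told apart.

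Promoter sequences of 6 of the 9 genes were at hand in RefSeq on the build GRCm38.p6, and the others (Plau, Plat and Thbd) are named only. The window of Procr, whose groups did not overlap, was searched but is not shown. The 250 bases before the annotated start are shown for the 3 fibrinogen genes, which had the largest fold changes, and for F3 and Plaur, whose groups did not overlap either, to let their starts be compared. Each reads 5′ to 3′ on the strand of the gene, with capitals for any match to the motifs listed after them. The windows lie at chr3:83025903-83026152 (plus strand), chr3:83049864-83050113 (minus strand), chr3:83007474-83007723 (plus), chr3:121723287-121723536 (plus) and chr7:24462233-24462482 (plus).
Fga: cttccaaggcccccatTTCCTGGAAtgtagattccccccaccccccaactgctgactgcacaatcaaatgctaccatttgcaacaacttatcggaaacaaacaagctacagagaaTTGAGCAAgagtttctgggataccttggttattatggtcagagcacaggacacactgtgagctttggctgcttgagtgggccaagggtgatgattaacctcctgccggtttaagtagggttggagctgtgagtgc
Fgb: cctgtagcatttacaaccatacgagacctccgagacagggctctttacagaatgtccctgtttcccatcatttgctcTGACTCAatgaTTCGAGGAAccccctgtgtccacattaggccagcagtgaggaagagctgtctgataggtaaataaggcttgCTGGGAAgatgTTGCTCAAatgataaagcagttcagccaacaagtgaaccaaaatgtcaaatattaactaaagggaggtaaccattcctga
Fgg: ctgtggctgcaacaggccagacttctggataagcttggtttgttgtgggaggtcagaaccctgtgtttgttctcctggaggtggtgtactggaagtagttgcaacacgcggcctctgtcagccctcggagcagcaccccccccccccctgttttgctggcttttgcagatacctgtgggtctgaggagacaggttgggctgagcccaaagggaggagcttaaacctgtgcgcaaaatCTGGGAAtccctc
F3: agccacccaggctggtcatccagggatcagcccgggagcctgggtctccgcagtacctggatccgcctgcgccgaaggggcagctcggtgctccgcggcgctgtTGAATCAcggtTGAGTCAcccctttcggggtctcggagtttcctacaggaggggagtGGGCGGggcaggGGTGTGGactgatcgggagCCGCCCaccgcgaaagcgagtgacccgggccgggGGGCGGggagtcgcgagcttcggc
Plaur: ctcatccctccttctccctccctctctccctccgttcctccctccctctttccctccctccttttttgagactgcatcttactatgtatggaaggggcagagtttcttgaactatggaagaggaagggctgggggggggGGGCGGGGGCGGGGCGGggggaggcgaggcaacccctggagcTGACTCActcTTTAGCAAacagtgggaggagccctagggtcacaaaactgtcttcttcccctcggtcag

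The letters searched, on both strands, were CTGGGAA (the core of the IL-6 response element known from fibrinogen genes), TTCNNNGAA (a STAT palindrome), TGA, any base and then TCA (AP-1), TTGCNNAA (resembling a C/EBP site), GGGCGG (GC box), CCACACC (resembling a KLF site) and TATAAA, the core of the TATA box. CTGGGAA stood in the windows of Fgb and Fgg, and in 9.1% of all 32851 RefSeq windows of this length. In Fgg it lay 13 to 7 bases before the start, and in Fgb 91 to 85 bases before it, with TTGCTCAA 80 to 73 bases before the start. The STAT letters stood in Fga and Fgb (7.02% of all windows), and the C/EBP-like letters in Fga, Fgb, Plaur and Procr (9.56%). The AP-1 letters stood in Fgb, F3, Plaur and Procr, against 6.75% of all windows, and F3 held a pair of them, at 146 to 140 and at 135 to 129 bases before the start. GC boxes stood in F3 and Plaur (32.7% of all windows), where 2 of the 3 in Plaur overlap by a base, and the KLF-like letters in F3 (6.52%). TATAAA stood in 0 of the 6 windows (12.4% of all). No match of one motif overlapped a match of another. A match describes these letters and does not show that a factor bound there.

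The comparison asks which of these transcripts are at other levels after tacrolimus than after saline. All 9 genes had the lower mean CPM and a fold change below 0 with tacrolimus, against 50.7% of all tested genes, and 6 of them, the 3 fibrinogen genes with F3, Plaur and Procr, kept the groups apart without overlap. The fibrinogen genes differed most, with fitted levels 8.10 to 11.7 times as high with saline. A single library moved these folds by over 1.5 times: on the log2 scale Fgb (-3.55 with all libraries) was at -5.07 without tacrolimus replicate 3 and -2.86 without saline replicate 2. Fgg (-3.09 with all) was at -3.82 without tacrolimus replicate 3 and -2.40 without saline replicate 3, and Fga (-3.02 with all) at -2.31 without saline replicate 3. By the edgeR test with all 6 libraries 0 of the 9 genes were called, against 0.0114% of all tested genes (2 of 17557). At an unadjusted p under 0.05 there were 7 of the 9, all lower, against 7.72% of all tested genes that were lower at that p and 12.7% in either direction. DESeq2 called 4 of the 9 lower (Fga, Fgg, Plaur and Procr), against 1.33% of all tested genes called lower and 1.96% in either direction. Without saline replicate 1, edgeR called 7 of the 9 lower (all but Plau and Thbd), against 6.16% of all tested genes called lower and 14% in either direction. Groups that did not overlap, with tacrolimus lower, were found for 66.7% of the 9, against 11% of all tested genes (21.8% in either direction). Leaving out any other single library gave 0 calls among the 9. The 9 genes were chosen with results of these data known, so these shares describe them and are no independent evidence.

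**Figure D1:**
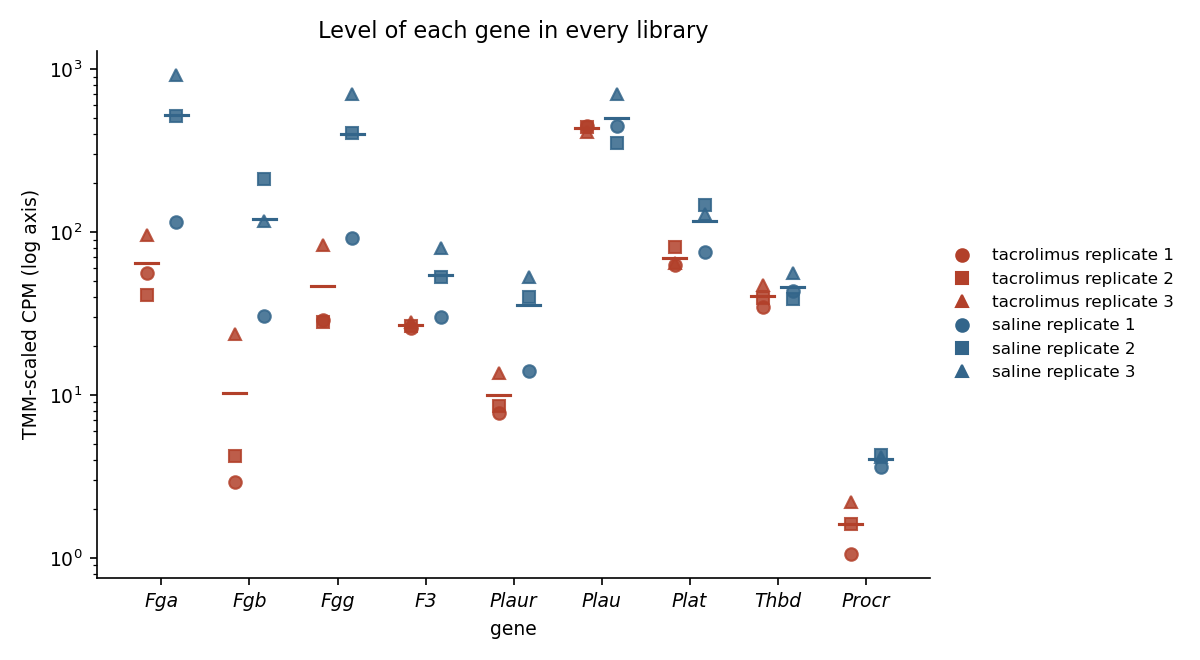
Level of each of the 9 genes in every library, as TMM-scaled CPM on a log axis, with tacrolimus libraries in red left of saline libraries in blue and the mean of each group as a line (n = 3 each). The saline libraries of Fga spread between 116 and 926 CPM, with saline replicate 1 lowest, while the tacrolimus libraries of Plau and F3 lie close together.

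The fibrinogen alpha chain gene Fga (ENSMUSG00000028001, chromosome 3, 82933383 to 82940934 on the plus strand of GRCm39) stood at 55.8, 41.1 and 95.7 CPM in tacrolimus replicates 1 to 3 and at 116, 519.6 and 926 CPM in saline replicates 1 to 3. Every saline library was above every tacrolimus library, but saline replicate 1 was only 1.21 times as high as tacrolimus replicate 3 and the next saline library was 4.50 times as high as saline replicate 1. The group means were 64.2 ± 28.2 CPM in tacrolimus libraries and 520.4 ± 405 CPM in saline libraries (SD, n = 3 each). Its log2 fold change of -3.02 ± 0.74 (SE) was not called (adjusted p = 0.392, edgeR). Without saline replicate 1 it was -3.49 ± 0.42 and called (adjusted p = 0.00846, edgeR), and DESeq2 on all 6 libraries called it too (adjusted p = 0.000812).

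The gamma chain gene Fgg (ENSMUSG00000033860, chromosome 3, 82915031 to 82922356, plus strand) followed the same order of libraries as Fga. It was at 28.9, 28.1 and 83.6 CPM in tacrolimus replicates 1 to 3 and at 91.5, 404 and 705 CPM in saline replicates 1 to 3. Tacrolimus replicate 3 and saline replicate 1 again lay next to each other. The log2 fold change was -3.09 ± 0.81 (SE; edgeR adjusted p = 0.392), and -3.56 ± 0.56 without saline replicate 1 (adjusted p = 0.0165, edgeR). A noncoding model on the other strand, Gm30097 (82833972 to 82915795), overlaps the start of Fgg. Gm30097 had at most 34 counts in a library, against 1185 or more for Fgg. None of the other 8 genes overlapped another model of the table.

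The beta chain gene Fgb (ENSMUSG00000033831, chromosome 3, 82947448 to 82957170, minus strand) was the least abundant of the 3 chains. It stood at 2.94, 4.20 and 23.6 CPM in tacrolimus replicates 1 to 3 and at 30.4, 210.5 and 118 CPM in saline replicates 1 to 3. Here saline replicate 2, not 3, was the highest library, and tacrolimus replicate 3 stood far above the other tacrolimus libraries. The log2 fold change of -3.55 ± 1.03 (SE) was the largest of the 9 and had the largest error (adjusted p = 0.392, edgeR). It was -4.00 ± 0.93 and called without saline replicate 1 (adjusted p = 0.0426, edgeR), whereas DESeq2 on all 6 libraries did not call it (adjusted p = 0.0647).

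Summed over the 3 chains, fibrinogen transcripts came to 87.7, 73.4 and 203 CPM in tacrolimus replicates 1 to 3 and to 237, 1134 and 1749 CPM in saline replicates 1 to 3. By the deposited FPKM, Fga was at 21.4 ± 9.44 and Fgg at 22.5 ± 15.3 with tacrolimus (SD, n = 3 each). With saline Fga was at 172 ± 133 and Fgg at 190.1 ± 145 (SD, n = 3 each). Within each group their levels thus lay within the spread of either. The level of Fgb was lower in all 6 libraries, at 2.70 ± 3.05 FPKM with tacrolimus and 31.2 ± 23.6 FPKM with saline. Within a library the FPKM ratio of Fga to Fgg kept between 0.796 and 1.34 with tacrolimus and between 0.878 and 0.913 with saline. The ratio of Fga to Fgb was less even, at 24.0, 12.4 and 5.14 in tacrolimus replicates 1 to 3 and 4.80, 3.13 and 9.94 in saline replicates 1 to 3. The ratios of the groups overlap, and the 2 highest were those of tacrolimus replicates 1 and 2, where Fgb was listed at 0.772 and 1.10 FPKM from 125 and 177 counts. Among tested genes, the mean FPKM of Fgg stood above 88.1% of genes with tacrolimus and above 98.9% with saline.

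**Figure D2:**
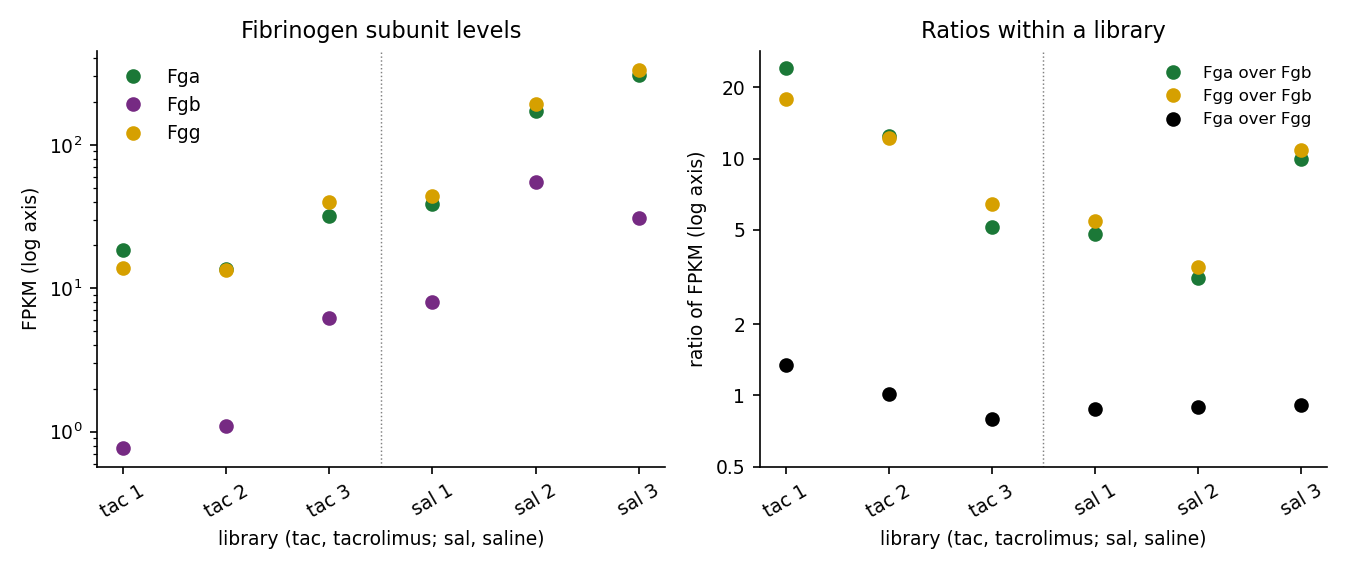
FPKM of the 3 fibrinogen chain genes in each library (left, log axis) and the ratios of their FPKM within a library (right, log axis), tacrolimus libraries left of the dotted line. Fga and Fgg lie together in every library, from 13.5 FPKM in a tacrolimus library to 334 FPKM in a saline library, and Fgb lies below both.

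The 3 fibrinogen genes lie beside each other on chromosome 3. Other tested models within 250 kb were Plrg1, Lrat and the noncoding Gm30097. Plrg1, a splicing factor gene next to Fgb, was at 26.5 ± 1.72 CPM in tacrolimus libraries and 29.5 ± 1.93 CPM in saline libraries (SD, n = 3 each). Lrat, which encodes lecithin retinol acyltransferase, had a log2 fold change of 0.60 ± 0.45 (SE; edgeR adjusted p = 0.521). Gm30097 was scarce, at 0.166 ± 0.155 CPM in tacrolimus libraries and 0.456 ± 0.415 CPM in saline libraries (SD, n = 3 each). Its log2 fold change was below 0 as well, at -1.45 ± 1.38 (SE; edgeR adjusted p = 0.602). The groups overlapped for these 3 models, whereas they did not for the 3 fibrinogen genes between them. This window was chosen after the values were seen.

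F3, the gene of tissue factor, lies elsewhere on chromosome 3 (ENSMUSG00000028128, 121517186 to 121528697, plus strand). It was at 25.9, 26.4 and 28.2 CPM in tacrolimus replicates 1 to 3 and at 30.3, 52.9 and 79.5 CPM in saline replicates 1 to 3. The tacrolimus libraries lay close together, with saline replicate 1 just above them and the other saline libraries clear of both. The means were 26.8 ± 1.17 CPM in tacrolimus libraries and 54.2 ± 24.6 CPM in saline libraries (SD, n = 3 each). On the log2 scale the fold change was -1.02 ± 0.32 (SE; edgeR adjusted p = 0.392), and -1.30 ± 0.18 without saline replicate 1 (adjusted p = 0.0120, edgeR). DESeq2 on all 6 libraries did not call it (adjusted p = 0.0990). Tfpi, the gene of tissue factor pathway inhibitor, was at 9.69, 7.57 and 6.58 CPM in tacrolimus replicates 1 to 3 and 8.50, 5.36 and 4.71 CPM in saline replicates 1 to 3. The FPKM of F3 was 5.79, 7.55 and 9.25 times that of Tfpi with tacrolimus and 7.70, 21.4 and 36.5 times with saline, so only saline replicates 2 and 3 stood outside the range of the tacrolimus libraries.

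Plaur, the gene of the urokinase receptor, is on chromosome 7 (ENSMUSG00000046223, 24161909 to 24175393, plus strand). Its level was 7.78, 8.54 and 13.6 CPM in tacrolimus replicates 1 to 3 and 14.0, 40.1 and 53.1 CPM in saline replicates 1 to 3. Saline replicate 1 and tacrolimus replicate 3 differed by a factor of 1.02, so the separation of the groups rests on a narrow gap. The log2 fold change was -1.84 ± 0.49 (SE; edgeR adjusted p = 0.392), -2.22 ± 0.27 without saline replicate 1 (adjusted p = 0.00864, edgeR) and called by DESeq2 (adjusted p = 0.0133).

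The groups overlapped for Plau, the gene of urokinase itself (ENSMUSG00000021822, chromosome 14, 20886728 to 20893453, plus strand). It was at 448, 441 and 412 CPM in tacrolimus replicates 1 to 3 and at 446, 353 and 705 CPM in saline replicates 1 to 3. The tacrolimus libraries and saline replicate 1 lay together, and the other saline libraries were the lowest and the highest of the 6. The log2 fold change was -0.21 ± 0.26 (SE; edgeR adjusted p = 0.685), and it was not called without saline replicate 1 either (adjusted p = 0.523, edgeR). It had the highest mean level of the 9 genes, 184 ± 7.67 FPKM with tacrolimus and 211 ± 75.7 FPKM with saline (SD, n = 3 each), although Fga and Fgg were above it in saline replicates 2 and 3. The FPKM of Plau was 33.5 to 63.7 times that of Plaur in tacrolimus libraries and 9.71 to 35.4 times in saline libraries, where 35.4 is the value of saline replicate 1.

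Plat, the gene of tissue plasminogen activator, is on chromosome 8 (ENSMUSG00000031538, 23247743 to 23272860, plus strand). Its level was 63.0, 80.5 and 64.5 CPM in tacrolimus replicates 1 to 3 and 75.5, 147 and 129 CPM in saline replicates 1 to 3. Saline replicate 1 was below tacrolimus replicate 2, so the groups overlapped. Plat had a log2 fold change of -0.75 ± 0.26 (SE; edgeR adjusted p = 0.392) and one of -0.99 ± 0.14 without saline replicate 1, when it was called (adjusted p = 0.0134, edgeR). By FPKM Plau exceeded Plat 14.4 to 18.7 times with tacrolimus and 6.35 to 15.6 times with saline, the lowest ratio being that of saline replicate 2.

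Procr, whose protein presents protein C to thrombin bound to thrombomodulin (ENSMUSG00000027611, chromosome 2, 155593037 to 155597391, plus strand), was scarce, at 1.06, 1.61 and 2.20 CPM in tacrolimus replicates 1 to 3 and 3.61, 4.29 and 4.18 CPM in saline replicates 1 to 3, from 45 to 175 counts. For this gene saline replicate 1 lay near the other saline libraries, which were at least 1.16 times as high, and was 1.64 times as high as the highest tacrolimus library. The log2 fold change was -1.31 ± 0.31 (SE; edgeR adjusted p = 0.392), with the smallest unadjusted p of the 9 (0.00443). It was -1.38 ± 0.34 without saline replicate 1 (adjusted p = 0.0495, edgeR), and DESeq2 on all 6 libraries called it (adjusted p = 0.0146).

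Thbd, the thrombomodulin gene (ENSMUSG00000074743, chromosome 2, 148246386 to 148250108, minus strand), stood at 34.7, 39.3 and 47.5 CPM in tacrolimus replicates 1 to 3 and at 43.6, 38.8 and 56.2 CPM in saline replicates 1 to 3. The groups overlapped and the log2 fold change was -0.19 ± 0.19 (SE; edgeR adjusted p = 0.612), with no call without saline replicate 1 (adjusted p = 0.492, edgeR). It had the narrowest range of the 9 genes, 1.62-fold from the lowest to the highest of the 6 libraries. Within a library the FPKM of Thbd was 11.8 to 17.9 times that of Procr with tacrolimus and 4.93 to 7.33 times with saline, and these ranges did not overlap. Both genes are known from endothelium, and the summed CPM of 9 endothelial markers was 597, 626 and 651 in tacrolimus replicates 1 to 3 and 568, 299.8 and 307 in saline replicates 1 to 3. Of these markers 8 were higher and 1 lower, with 0 called by edgeR with all libraries. Without saline replicate 1, 7 were called higher, against 7.85% of all tested genes. The endothelial sum was thus higher with tacrolimus while the means of both genes were lower, and its part in their values was not tested.

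For a single gene with 3 libraries against 3, the exact two-sided permutation test of mean log2(CPM + 0.1) cannot go below p = 0.1. That value was reached by Fga, Fgb, Fgg, F3, Plaur and Procr, whereas the exact permutation p was 0.2 for Plat, 0.5 for Thbd and 0.8 for Plau. Over the alternative tests and the fits that left out 1 library, the adjusted p ran from 0.000812 to 0.682 for Fga, from 0.00146 to 0.682 for Fgg and from 0.0426 to 0.682 for Fgb. It ran from 0.00864 to 0.682 for Plaur, from 0.0120 to 0.682 for F3, from 0.0134 to 0.682 for Plat and from 0.0146 to 0.682 for Procr. Plau (0.523 to 0.835) and Thbd (0.492 to 0.962) stayed above the threshold under each of them.

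**Figure D3:**
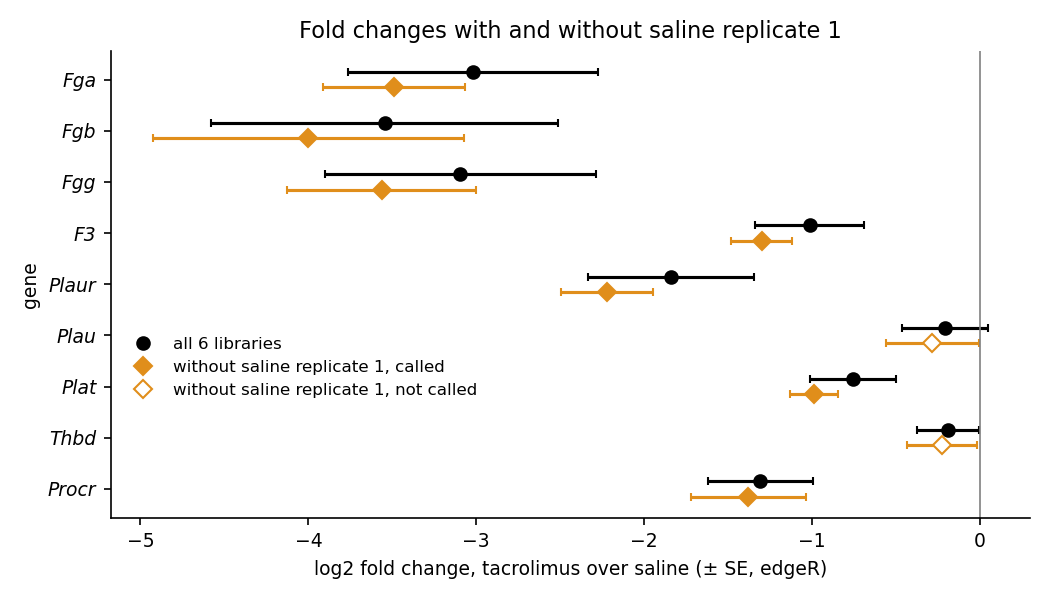
Log2 fold change of each gene, tacrolimus over saline, with its SE from edgeR, for all 6 libraries (black circles) and without saline replicate 1 (orange diamonds, filled where the adjusted p was under 0.05). The fibrinogen genes lie between -3.02 and -3.55 with all libraries, and Plau and Thbd lie between -0.19 and -0.28 in both fits.

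Ordered by mean FPKM with tacrolimus, Plau stood far above Fgg and Fga, which were followed by Plat (11.1 ± 1.56), Thbd (10.9 ± 1.76) and F3 (10.6 ± 0.482), then Plaur (3.82 ± 1.22), Fgb (2.70 ± 3.05) and Procr (0.802 ± 0.284). The means of Plau and Fgg, of Fga and Plat, and of F3 and Plaur lay further apart than 1 SD of either, whereas the other neighbours in this order did not. With saline the order was Plau (211 ± 75.7), Fgg (190.1 ± 145), Fga (172 ± 133), Fgb (31.2 ± 23.6), F3 (21.3 ± 9.59), Plat (18.7 ± 5.86), Plaur (13.6 ± 7.53), Thbd (12.4 ± 2.34) and Procr (1.98 ± 0.174), as mean FPKM ± SD (n = 3 each). With saline the means of Fga and Fgb, and of Thbd and Procr, lay further apart than 1 SD of either, whereas the other neighbours did not.

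Likeness of pattern was measured over the 6 libraries as the root-mean-square difference of log2 CPM centred on each gene's mean, among 12935 named genes with a mean of at least 1 CPM. The 3 genes nearest to Fga were Fgg (0.240), Lrg1 (0.245), a secreted acute-phase glycoprotein gene, and Slc7a11 (0.269), the cystine transporter gene. Nearest to Plaur were Slc25a24 (0.115), a mitochondrial carrier gene, and the transcription factor genes Myc (0.160) and Junb (0.166). Nearest to F3 were Mapk6 (0.0491), Rhbdf2 (0.0541) and Cd151 (0.0612), and nearest to Thbd were Zfpl1 (0.0294), Zmym5 (0.0460) and Acly (0.0513). Genes that vary little lie close to many others by this measure, so the values for F3 and Thbd cannot be set against those for Fga. From Fga, Fgb lay at 0.976 and Plaur at 0.613.

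The remaining genes of coagulation and fibrinolysis are given by list. With all libraries, 12.7% of all tested genes were at an unadjusted p under 0.05 by edgeR (7.72% lower). DESeq2 called 1.96% of them (1.33% lower). In the coagulation factor list, 9 of 12 tested genes were higher with tacrolimus and 3 lower. The list also holds Ggcx and Vkorc1, genes of vitamin K cycle enzymes, both among the higher (log2 fold change 0.23 and 0.66, edgeR). The median log2 fold change of the list was 0.44, against -0.0069 over all genes tested. By edgeR with all 6 libraries 0 of the 12 were called, and 3 had an unadjusted p under 0.05, all higher. Without saline replicate 1, 4 were called higher and 0 lower, against 7.85% and 6.16% of all tested genes. Vkorc1 was among the 4 (adjusted p = 0.0440, edgeR). F13b, the gene of the carrier subunit of factor XIII, was at 98.3, 87.2 and 102 CPM in tacrolimus replicates 1 to 3 and 71.5, 44.3 and 51.1 CPM in saline replicates 1 to 3. It was called higher by DESeq2 (adjusted p = 0.0324) and by edgeR without saline replicate 1 (adjusted p = 0.00894), but not by edgeR with all libraries (adjusted p = 0.392). F8, the gene of factor VIII, was at 9.57, 9.25 and 9.57 CPM in tacrolimus libraries and 7.53, 4.27 and 2.17 CPM in saline libraries, and the groups did not overlap (adjusted p = 0.393, edgeR; 0.0291 without saline replicate 1). Klkb1, the gene of plasma prekallikrein, had a log2 fold change of 1.32 ± 0.67 (SE; edgeR adjusted p = 0.416). Prothrombin transcripts (F2) did not exceed 0.470 CPM in any library. Vwf, the gene of von Willebrand factor, overlapped between groups (log2 fold change 0.20 ± 0.41, SE; adjusted p = 0.816, edgeR). F11 and F12 had no count in any library.

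Anticoagulant genes were split, 5 higher and 3 lower of 8 tested (median log2 fold change 0.26), with 0 called by edgeR with all libraries, 0 without saline replicate 1 and 0 by DESeq2. At an unadjusted p under 0.05 there was 1 in each direction. Proc, the gene of protein C, was at 65.2 ± 6.39 CPM in tacrolimus libraries and 50.1 ± 6.78 CPM in saline libraries, and its cofactor gene Pros1 at 33.6 ± 5.14 CPM in tacrolimus libraries and 50.1 ± 17.9 CPM in saline libraries (SD, n = 3 each). Serpina10, the gene of the protein Z-dependent protease inhibitor, was at 6.03 ± 3.43 CPM in tacrolimus libraries and 19.9 ± 11.6 CPM in saline libraries, with overlap between groups. Tfpi2, the gene of a Kunitz-type inhibitor, had a log2 fold change of 0.77 ± 0.38 (SE; edgeR adjusted p = 0.411).

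In the list of plasminogen and the inhibitors of fibrinolysis, 4 of 7 tested genes were higher and 3 lower (median log2 fold change 0.36). The list also holds Klkb1, which is neither and is counted among the coagulation factors too. With all libraries 0 were called by edgeR, 2 were at an unadjusted p under 0.05, both lower, and 1 was called by DESeq2. When saline replicate 1 was left out, edgeR called 2 of the 7 higher and 2 lower, against 7.85% and 6.16% of all tested genes. The higher ones were Klkb1 and Serping1 (adjusted p = 0.0174 and 0.0356, edgeR). Cpb2, the gene of the thrombin-activatable fibrinolysis inhibitor, did not exceed 1.04 CPM with tacrolimus and was at 1.07, 4.93 and 2.27 CPM with saline. Serping1, the gene of C1 inhibitor, was at 49.0 ± 8.32 CPM in tacrolimus libraries and 27.4 ± 15.2 CPM in saline libraries (SD, n = 3 each). Serpinf2, the gene of alpha-2-antiplasmin, overlapped between groups (log2 fold change 0.36 ± 0.32, SE; adjusted p = 0.576, edgeR). Plg, the gene of plasminogen itself, was between 0 and 0.308 CPM and did not pass the filter on low counts.

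**Figure D4:**
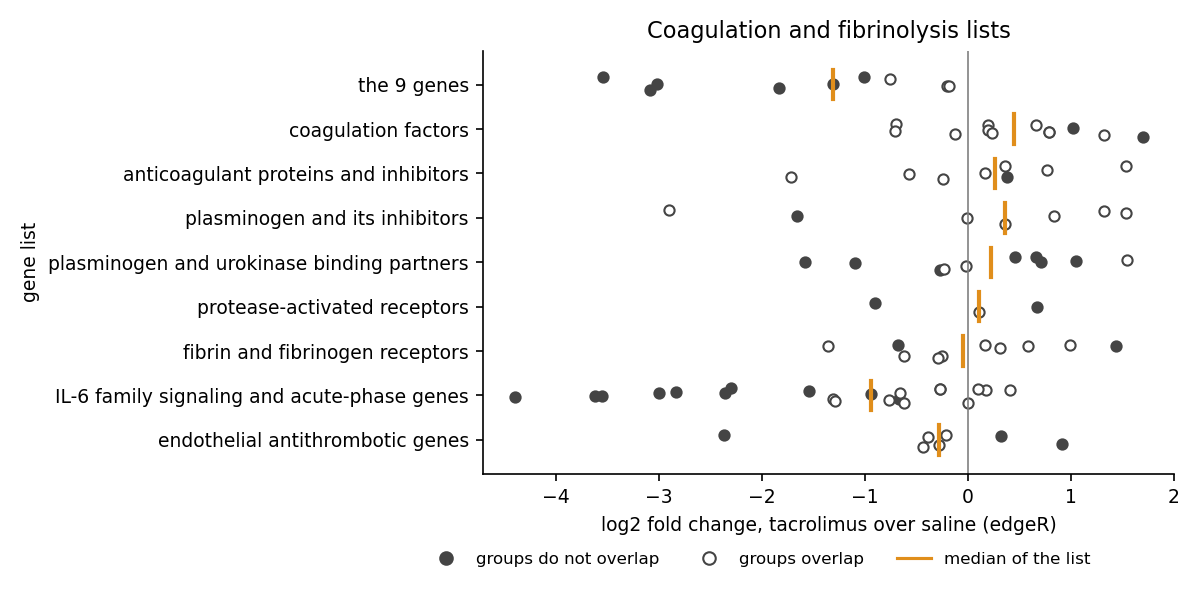
Log2 fold change, tacrolimus over saline, of each tested gene of the 9 genes described here and of 8 lists of related genes, with filled points where the groups did not overlap and the median of each list in orange. The 9 genes have a median of -1.31 and the IL-6 and acute-phase list one of -0.95, while the other lists have medians between -0.28 and 0.44.

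Of the genes whose proteins bind plasminogen or urokinase, 5 of 10 were higher and 5 lower (median log2 fold change 0.22), and 0 were called by edgeR with all libraries. At an unadjusted p under 0.05 there were 3 higher and 2 lower. The lower ones include S100a10, at 111, 98.7 and 110.2 CPM in tacrolimus replicates 1 to 3 and 136, 439.6 and 380.3 CPM in saline replicates 1 to 3, and its partner Anxa2, at 93.5 ± 18.5 CPM in tacrolimus libraries and 199.5 ± 73.7 CPM in saline libraries (SD, n = 3 each). S100a10 and annexin A2 form a complex that binds plasminogen and tissue plasminogen activator, and DESeq2 called both genes lower (adjusted p = 0.0114 and 0.0496). The endocytic receptor genes Lrp1 and Vldlr, whose proteins take up protease complexes from the cell surface, had log2 fold changes of 0.66 ± 0.21 and 0.46 ± 0.12 (SE; adjusted p = 0.392 for each, edgeR). Without saline replicate 1 edgeR called 4 of the 10 higher and 2 lower, against 7.85% and 6.16% of all tested genes.

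Of 3 tested receptor genes for thrombin and related proteases, 2 were higher and 1 lower (median log2 fold change 0.11), and 0 were called by edgeR with all libraries or by DESeq2. F2r, the gene of the thrombin receptor PAR1, was at 89.0, 81.8 and 106 CPM in tacrolimus replicates 1 to 3 and 59.3, 44.1 and 70.0 CPM in saline replicates 1 to 3. F2rl1, the gene of PAR2, which tissue factor with factor VIIa and trypsin-like proteases activate, was at 38.9, 38.0 and 37.5 CPM in tacrolimus replicates 1 to 3 and 42.6, 76.1 and 94.7 CPM in saline replicates 1 to 3. The groups overlapped for neither gene, and neither was called with all libraries (adjusted p = 0.392 for each, edgeR). Without saline replicate 1 F2rl1 was called lower (adjusted p = 0.00659, edgeR) and F2r was not called (adjusted p = 0.0935). F2rl3, the gene of PAR4, did not exceed 0.702 CPM. Of 10 genes of receptors for fibrin and fibrinogen, 5 were higher and 5 lower (median log2 fold change -0.048), with 0 called by edgeR with all libraries or by DESeq2 and 2 at an unadjusted p under 0.05, both lower. Of the 10, edgeR called 1 higher and 2 lower without saline replicate 1, against 7.85% and 6.16% of all tested genes. Itgb3, an integrin beta chain gene, was at 2.19 ± 0.808 CPM in tacrolimus libraries and 5.65 ± 2.71 CPM in saline libraries (SD, n = 3 each). Itga5, an integrin alpha chain gene, and Icam1, an adhesion molecule gene, had log2 fold changes of -0.62 ± 0.26 and -0.68 ± 0.28 and Itgax, a leukocyte integrin gene, one of 1.44 ± 0.68 (SE; adjusted p = 0.394, 0.395 and 0.406, edgeR). Itgam and Itgb2, the chains of the leukocyte integrin that binds fibrinogen, overlapped between groups.

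The list of IL-6 family signaling and acute-phase genes, the class to which fibrinogen belongs in the liver, was lower in 17 of 21 tested genes (median log2 fold change -0.95). With all libraries edgeR called 0 and DESeq2 8 lower, the latter against 1.33% of all tested genes. At an unadjusted p under 0.05 there were 11, all lower, against 7.72% of all tested genes. Without saline replicate 1, 23 genes of the list passed the filter and edgeR called 10 of them lower, against 6.16% of all tested genes. Saa1, a serum amyloid A gene whose reads the near copy Saa2 could share, was at 0.330 ± 0.177 CPM in tacrolimus libraries and 3.93 ± 2.15 CPM in saline libraries, and Cp, the ceruloplasmin gene, at 120.1 ± 13.7 CPM in tacrolimus libraries and 231 ± 63.2 CPM in saline libraries (SD, n = 3 each). Lrg1 was at 12.6, 7.57 and 12.7 CPM in tacrolimus replicates 1 to 3 and 21.3, 77.2 and 164 CPM in saline replicates 1 to 3. Socs3, the feedback inhibitor induced by STAT3, was at 3.43, 8.25 and 8.50 CPM in tacrolimus replicates 1 to 3 and 11.7, 32.6 and 59.1 CPM in saline replicates 1 to 3. The liver acute-phase genes Orm1 and Hpx did not pass the filter on low counts, and Hp, the haptoglobin gene, had a log2 fold change of -1.29 ± 0.62 (SE; edgeR adjusted p = 0.409). Of 7 endothelial genes known to restrain thrombosis, 5 were lower and 2 higher (median log2 fold change -0.28), with 0 called by edgeR with all libraries and 1, lower, at an unadjusted p under 0.05. There was 1 call higher and 1 lower by edgeR without saline replicate 1, against 7.85% and 6.16% of all tested genes. The gene under that p was Hmox1, heme oxygenase 1, which tubules also express, with a log2 fold change of -2.37 ± 0.66 (SE; edgeR adjusted p = 0.392; 0.00666 by DESeq2). Ptgis, the prostacyclin synthase gene, and the transcription factor gene Klf2 had log2 fold changes of 0.92 ± 0.44 and 0.32 ± 0.16, and Nos3, the endothelial nitric oxide synthase gene, one of -0.39 ± 0.24 (SE; adjusted p = 0.409, 0.411 and 0.449, edgeR).

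Markers of other cells were measured beside these results. The libraries carried the genes of the labelled tissue: the summed CPM of 8 proximal tubule markers was 13110.2 to 15406 with tacrolimus and 6836 to 11059 with saline. Of 12 hepatocyte markers, Ahsg, Tat and Cps1 had no count in any library. Of the 9 tested, 3 were higher and 6 lower with tacrolimus, and 0 were called by edgeR with all libraries, by DESeq2 or without saline replicate 1. The summed CPM of the list was 262, 209.7 and 187 in tacrolimus replicates 1 to 3 and 262, 194 and 257 in saline replicates 1 to 3, mostly from Serpina1a, which has near-identical copies that could share its reads and was at 102 to 141 CPM with tacrolimus and 116 to 145 CPM with saline. Alb, the albumin gene, was at 12.7, 4.48 and 3.86 CPM in tacrolimus libraries and 2.93, 2.57 and 2.51 CPM in saline libraries, and every tacrolimus library was above every saline library (adjusted p = 0.392, edgeR). The part of hepatocyte transcripts in the fibrinogen values was not tested. Of 9 platelet markers 6 did not pass the filter, Gp6 and Treml1 had no count, and the sum was 4.96 to 7.62 CPM with tacrolimus and 3.25 to 6.81 CPM with saline. Pf4, the platelet factor 4 gene, did not exceed 1.93 CPM.

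The sum of 9 injured tubule markers was 2635, 3510.2 and 7787 CPM in tacrolimus replicates 1 to 3 and 7877, 31344 and 30999 CPM in saline replicates 1 to 3, with Spp1, the osteopontin gene, contributing most. All 9 were lower, and 0 were called by edgeR with all libraries. Without saline replicate 1, 8 were called lower, against 6.16% of all tested genes. Lcn2, the neutrophil gelatinase-associated lipocalin gene, is also in the acute-phase list. Tacrolimus replicate 3 and saline replicate 1 were thus next to each other, as they were for the fibrinogen genes, F3 and Plaur. In order of level they were adjacent for Procr, Plat and Thbd too, but for Procr the saline library was 1.64 times as high. The sum of 8 neutrophil markers was 5.06, 3.98 and 3.67 CPM in tacrolimus replicates 1 to 3 and 7.77, 20.2 and 35.7 CPM in saline replicates 1 to 3, with Ly6g and Mpo at 0 throughout. All 5 that were tested were lower, with 0 called by edgeR with all libraries. Without saline replicate 1, 5 were called lower, against 6.16% of all tested genes. The sum of 8 monocyte and macrophage markers was 93.6 to 103 CPM with tacrolimus and 63.9 to 112 CPM with saline. That of 6 podocyte markers was 374 to 447 CPM with tacrolimus and 354 to 423 CPM with saline. The part of tubule injury or of neutrophils in the values of the 9 genes was not tested.

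**Figure D5:**
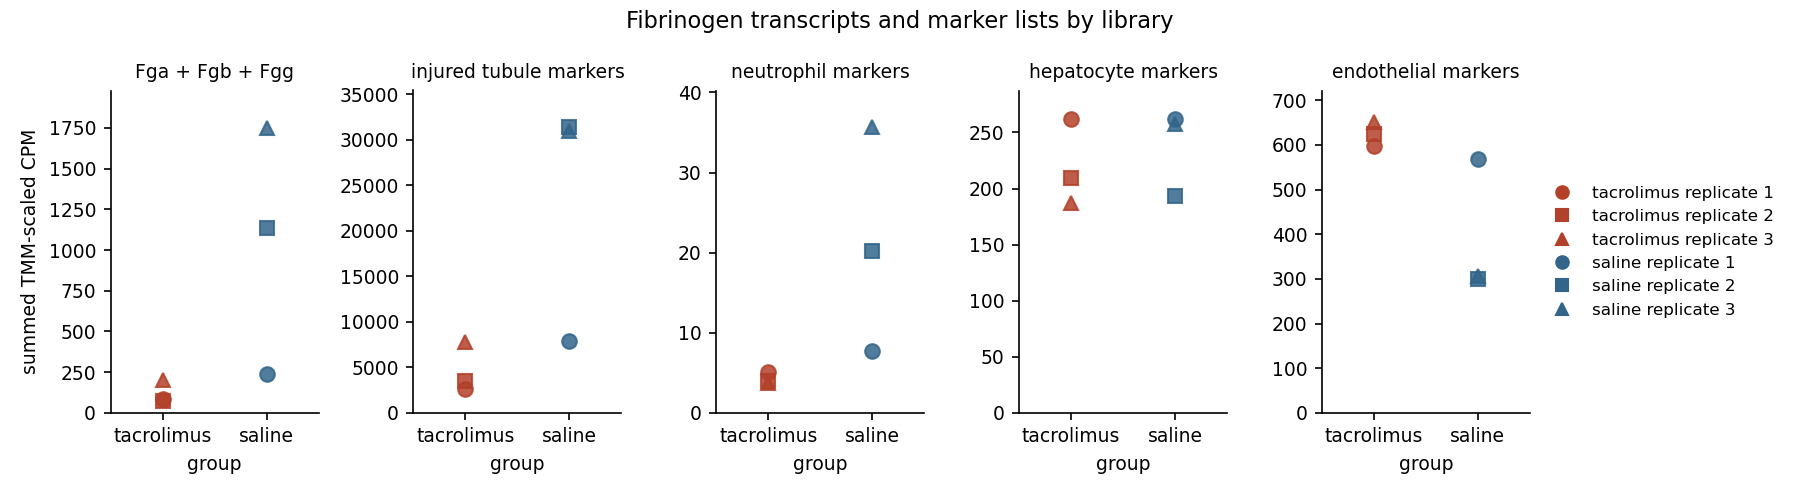
Summed TMM-scaled CPM in each library of the 3 fibrinogen genes and of 4 marker lists, tacrolimus left of saline, each panel with its own linear axis from 0. The fibrinogen and injured tubule panels both place saline replicate 1 beside tacrolimus replicate 3 and far below saline replicates 2 and 3, while hepatocyte markers lie between 187 and 262 CPM in all libraries.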

How the data were processed

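RNA was sequenced from 6 kidney libraries, 3 per group by their titles, and the labels used here do not divide them into batches. The 9 genes and all gene lists were chosen with earlier results of these data known. The deposited counts are whole reads per gene and not normalized, per the file headers. The deposited FPKM values were made by the authors, and they do not follow from the listed counts, gene lengths and library totals. In tacrolimus replicate 1, Plat has 2681 counts, 4042 bases and 10.1 FPKM, and Thbd 1477 counts, 3723 bases and 9.34 FPKM. Coordinates are on GRCm39, the build named in the submitters' processing notes. The sources used here give no aligner, counter, annotation or strand setting. With strand unknown, antisense reads cannot be told apart. The labels name TRIzol or a column kit for RNA extraction, without saying which for which library.

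Low genes were removed with filterByExpr at its count minimum of 10 and total minimum of 15. Counts were tested with edgeR 4.0.16 in R 4.3.3 (TMM, robust glmQLFit, glmQLFTest), two-sided, adjusted over all genes tested. Each SE is the fold change divided by the root of F. Alternatives were DESeq2 1.42.0, its size factors, no filter, limma 3.58.1 on log2(FPKM + 1) and log2(FPKM + 0.1), a replicate block and leaving out each library. The scripts were tested on simulated data. No libraries of the same group agreed within sampling noise, and pairs across the groups were not checked in this way. At 38443534 counts or more per library, counting error is small beside the spread between libraries except near or under 1 CPM. Related genes named are, per list, the 4 with the smallest unadjusted p and 13 fixed by name, of which 1 is not reported here. Other genes given with values were chosen after their values were seen. RefSeq promoter windows are on GRCm38.p6 and the gene coordinates on GRCm39, and neither was converted. The table has 1 emptied line, which is not analysed here.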

Additional observations from a re-analysis of the deposited data

How the results depend on the processing

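Over all genes tested edgeR called 2, DESeq2 344, limma 1 with either FPKM pseudocount, the replicate block 1, and leaving out 1 library 0 to 2534, the most without saline replicate 1. Of the 9 genes, edgeR called 0, DESeq2 4, limma and the block 0, and the fits that left out 1 library 0 to 7. DESeq2 called Fga (log2 fold change -3.02), Fgg (-3.10), Plaur (-1.84) and Procr (-1.31). Leaving out 1 library gave log2 fold changes of -3.49 to -2.31 for Fga, -5.07 to -2.86 for Fgb, -3.82 to -2.40 for Fgg, -1.30 to -0.63 for F3, -2.22 to -1.44 for Plaur, -0.99 to -0.56 for Plat, -1.60 to -1.07 for Procr and -0.33 to -0.02 for Thbd. Plau ran from -0.41 to 0.12, with the sign turned without saline replicate 3, and the cause was not tested. The range held both signs for F2rl3 (-0.38 to 1.70), Pf4 (-0.80 to 0.018) and Vwf (-0.055 to 0.69). No pairing by library number was seen. In their deviations from the group means, same-numbered libraries correlated at -0.0229, -0.00946 and -0.0474, and differently numbered ones at -0.127 to 0.136. With 3 libraries per group, these values cannot exclude a pairing. DESeq2's size factors and no filter on low counts changed no call of the 9 genes. Counts were lowest for Procr (45 to 93 with tacrolimus, 149 to 175 with saline), where depth limits the values most. Fgb had 125 to 996 counts with tacrolimus, and the SD between those libraries was 113% of its mean CPM.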
